A study of Homo sapiens with 6 samples.

Results

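The comparison described here set LARP7 knockout against wild-type mouse embryonic fibroblasts (MEFs), the primary connective tissue cells that grow out of a minced mid-gestation embryo. Its members were all genes at 1 RPKM or more in either library (RPKM is reads per kilobase of gene, scaled to the depth of the library), which gave 14479 of the 49089 entries of the MEF table. The LARP7-/- and LARP7+/+ cells came from mid-gestation embryos (E13.5), were grown in DMEM with fetal bovine serum, and were used at some passage between 1 and 6. Each genotype is 1 library, 2 of the 6 libraries in the series, whose other cultures are the human breast cancer lines MDA-MB-231 and HCC1937. With 1 library a genotype no difference below has a replicate check, none was tested, and no p-value is given. A difference in passage, embryo or culture between the libraries cannot be told apart from the genotype. How the allele was made, the mouse strain and whether the embryos were littermates are not given in the sources used here.

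LARP7 binds the end of the small nuclear RNA 7SK and keeps it stable in a particle with the capping enzyme MEPCE and the HEXIM proteins. The particle keeps the kinase P-TEFb, made of CDK9 and a cyclin T, inactive, and P-TEFb frees paused RNA polymerase II when it is let go. Genes that cells switch on fast, such as those for cytokines and growth responses, are known for their dependence on that release. Fibroblasts build and remodel the extracellular matrix and carry sensors of infection and injury, so their transcriptome includes matrix, protease, chemokine and interferon-response genes.

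Levels are given below as RPKM, the wild-type value first and the knockout value second, with the log2 ratio in brackets. The size of a difference is the log2 ratio of knockout to wild-type RPKM after 1 was added to each, and a gene is called higher or lower at 1 or -1, which is 2-fold on that scale. The scale understates the difference of genes with low levels. By this rule 348 genes were called higher, a background of 2.40%, and 128 were called lower, a background of 0.884%, so that 3.29% were called in either direction. At these shares little can be read from the count of calls in a short list that holds 0 or 1 of them. The median log2 ratio over all tested genes was 0.00, and 84.0% of them lay within 0.5 of 0. Just inside the call lay Ypel3 at 10.5 and 22.01 RPKM and Iqgap3 at 4.57 and 1.78 RPKM, and just outside it Fsd1 at 2.88 and 6.76 RPKM and Dlgap5 at 5.92 and 2.47 RPKM. Just inside the minimum lay Icos at 0.403 and 1.00 RPKM, and just outside it Zfp563 at 0.9004 and 0.9997 RPKM. Of the called genes 73.1% were on the higher side. In 790 of the tested genes the minimum was reached in the knockout library alone, and 130 of those were called higher. Another 325 reached it in the wild-type library alone, of which 26 were called lower. A gene that enters through 1 library is bound to differ, so where leaving such genes out lowers the number of calls in a list described below, that number is given too. The lists, their members and their counts below describe these libraries and were chosen with earlier results of the same data known.

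**Figure D1:**
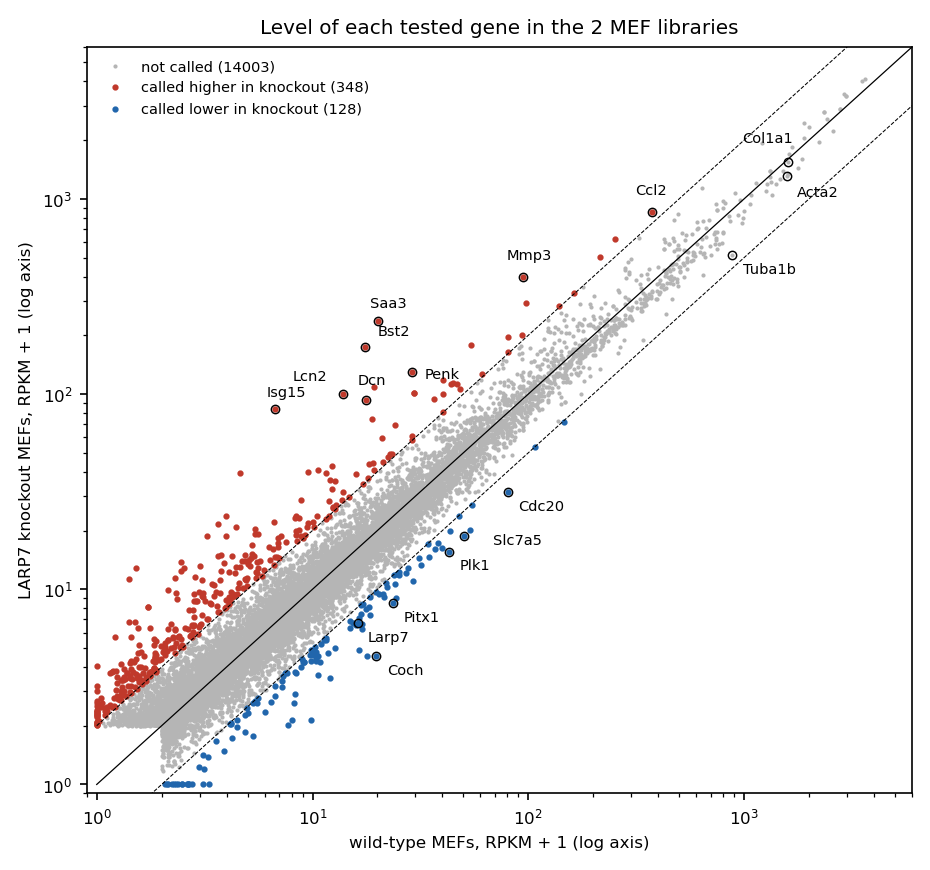
Level of each of the 14479 tested genes in wild-type (x axis) and LARP7 knockout MEFs (y axis), as RPKM + 1 on log axes, 1 library a genotype. The solid line marks equal levels and the dashed lines 2-fold; 348 genes lie at or above the upper line (red) and 128 at or below the lower one (blue), and circles mark genes named in the text.

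The libraries were alike in depth, with 36.9 M reads behind the wild-type and 37.3 M behind the knockout values, as recovered from the spacing of low values. At that depth 1 read in a gene of 1 kb is worth 0.0271 and 0.0268 RPKM, so a gene of that length at 1 RPKM rests on 36.9 and 37.3 reads. Defining fibroblast markers summed to 2349 and 2431 RPKM, with 9 of 10 measured and none called. Col1a1, the main collagen chain of fibroblasts, was at 1594 and 1541 RPKM. The markers of several other lineages were low in both libraries: 0.358 and 0.196 RPKM in sum for skeletal muscle, 1.52 and 1.16 for endothelium, 0.217 and 0.132 for epithelium, and 0.135 and 0.153 for erythroid cells, whose globin genes were listed at 0. Smooth muscle markers, which cultured fibroblasts also express, summed to 231.3 and 210.5 RPKM, and cartilage markers to 36.6 and 39.6 RPKM, nearly all of it Col2a1. Both libraries carried Y-linked transcripts, such as Ddx3y at 12.3 and 12.2 RPKM, and next to no Xist, at 0.00303 RPKM in the wild-type and listed at 0 in the knockout. In bulk RNA, fewer cells of a type and less RNA per cell cannot be told apart.

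The targeted gene was lower in the knockout library and was not absent from it. Larp7 was at 15.2 and 5.72 RPKM (log2 ratio -1.27), which leaves 37.6% of the wild-type level, and the authors' deposited table lists its log2 change as -1.23. Which part of Larp7 the allele removes is not given, so the reads that remain cannot be placed in it. Rn7sk, the gene for the 7SK RNA itself, was at 1.49 RPKM in the wild-type library and listed at 0 in the knockout. It entered through the wild-type library alone. Any poly(A) selection is not given, so how well these libraries captured this small RNA is unknown. A loss of 7SK from the cells cannot be read from these low values. None of the other 7 genes for parts of the particle or for P-TEFb was called. Hexim1, which inhibits the kinase, was at 14.6 and 19.7 RPKM (0.41). The kinase gene Cdk9 itself was at 19.4 and 17.5 RPKM (-0.14), its cyclin Ccnt1 at 6.52 and 5.88 RPKM (-0.13) and the 7SK capping enzyme Mepce at 15.1 and 14.4 RPKM (-0.07).

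Genes that interferons induce were called higher in large part. Of 54 listed, 49 were measured, 38 were called higher and none lower, with a median log2 ratio of 1.47. Counting the 31 members at the minimum in both libraries, 22 were called, with a median of 1.49. The highest ratio of all mRNA genes was that of Isg15, a ubiquitin-like modifier, at 5.70 and 82.6 RPKM (3.64). The steps of the response are given next in the order in which a signal passes through them.

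The receptors and ligands at the head of the pathway were not called. Ifnar1 and Ifnar2, the chains of the type I interferon receptor, were at 10.6 and 12.9 RPKM (0.26) and 10.1 and 16.1 RPKM (0.62), and the interferon gamma receptor chain Ifngr2 at 21.5 and 29.1 RPKM (0.42). Of the 10 interferon and receptor genes listed, only the 4 receptor chains were measured. The other 6, the listed interferon genes, were at 0 in both libraries, and interferon genes outside the list are not described here. Of the sensors of viral nucleic acid, Ddx58, the gene for RIG-I, was called at 3.54 and 9.74 RPKM (1.24). Ifih1, the gene for MDA5, and Zbp1 were called at 0.877 and 2.77 RPKM (1.01) and 0.223 and 2.81 RPKM (1.64), but reached the minimum in the knockout library alone. Eif2ak2, the gene for the RNA-activated kinase PKR, was just short of a call at 6.45 and 13.8 RPKM (0.995). Among the transcription factors that act downstream, Stat2 was at 5.60 and 21.2 RPKM (1.75) and Irf7, which amplifies interferon production, at 1.53 and 11.8 RPKM (2.34), while Irf9, a DNA-binding partner of Stat2, was just short of a call at 4.26 and 8.79 RPKM (0.90).

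The effectors ranged widely in level. Bst2, which tethers budding virions, was at 16.6 and 173 RPKM (3.31), and Ifitm3, which blocks virus entry, was already at 250.3 RPKM in the wild-type and at 623 RPKM in the knockout (1.31). Lgals3bp, a secreted glycoprotein, was at 18.2 and 107 RPKM (2.49). In contrast the GTPases that attack vacuoles of intracellular microbes were low in the wild-type library: Iigp1 was at 0.556 and 5.31 RPKM (2.02), Igtp at 1.31 and 10.5 RPKM (2.31) and Gbp3 at 0.506 and 5.82 RPKM (2.18). Usp18, which removes ISG15 and dampens the receptor, was at 1.46 and 12.7 RPKM (2.48). One member stood on the other side of 0 without a call: Samhd1, an enzyme that breaks down DNA building blocks, was at 10.8 and 7.68 RPKM (-0.44). The Ifit, Oas, Gbp, Trim30 and Apol9 families hold close copies that can share reads, so the split between copies such as Ifit3 and Ifit3b is uncertain.

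Genes for antigen presentation by class I molecules were on the higher side, with called members among the presenting molecules, the peptide transporter and the immunoproteasome. All 18 measured members had a ratio above 0, 10 were called higher, and the median was 1.11. Among the 14 at the minimum in both libraries 8 were called. The presenting molecules H2-K1 and H2-D1 were at 18.0 and 73.4 RPKM (1.97) and 47.1 and 105 RPKM (1.15), and the nonclassical H2-T23 at 2.76 and 13.9 RPKM (1.99), with the caution that class I genes are near-identical and share reads. B2m, the invariant light chain, has no such copy and was at 326 and 629.7 RPKM (0.95), just under the threshold. The peptide transporter genes Tap1 and Tap2 were at 2.35 and 7.53 RPKM (1.35) and 2.09 and 8.19 RPKM (1.57). Psmb8, a catalytic subunit of the immunoproteasome, was at 0.515 and 3.41 RPKM (1.54), whereas the 34 subunits of the constitutive proteasome had a median of -0.08 and none was called. Nlrc5, the transactivator of class I genes, was low in both libraries at 0.207 and 1.79 RPKM (1.21). Psmb8 and Nlrc5 reached the minimum in the knockout library alone.

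Chemokine genes were on the higher side too, including some of the most abundant secreted products of these cells. Of 20 measured, 10 were called higher, none lower, and the median was 1.06. Among the 15 at the minimum in both libraries 8 were called. Ccl2 and Ccl7, which draw monocytes, were at 372 and 858 RPKM (1.21) and 215 and 502 RPKM (1.22). The neutrophil chemokines Cxcl1 and Cxcl2 were at 39.3 and 117 RPKM (1.55) and 3.85 and 13.96 RPKM (1.62), but Cxcl5, of the same family and the more abundant, was at 446 and 588 RPKM without a call (0.40). Ccl20, which attracts cells through CCR6, was at 18.1 and 43.5 RPKM (1.22), and the eotaxin Ccl11 at 0.526 and 11.9 RPKM (3.08). Cxcl12, the homeostatic chemokine of stroma, was level at 19.8 and 20.2 RPKM (0.03).

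Cytokine genes split into called and level members. Of 18 measured, 7 were called higher and none lower, with a median of 0.40. Of the 13 at the minimum in both libraries 4 were called, and their median was 0.32. Lif, a cytokine that signals through gp130, was at 22.99 and 68.2 RPKM (1.53), and Il6, which shares that receptor, at 11.3 and 41.6 RPKM (1.79). Tslp, known as a product of barrier tissue that acts on dendritic cells, was at 2.90 and 12.7 RPKM (1.81). Csf3, a neutrophil growth factor, was at 1.27 and 4.63 RPKM (1.31). Csf2 and Il1b entered through the knockout library alone, at 0.237 and 2.55 RPKM (1.52) and 0.0426 and 1.78 RPKM (1.42). The most abundant members were not called: Mif, a constitutive cytokine, was at 398 and 445 RPKM (0.16) and the macrophage growth factor Csf1 at 234 and 256 RPKM (0.13).

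The receptors and the NF-kB genes behind these products differed less. Of 24 cytokine and Toll-like receptor genes measured, 2 were called higher: Tlr2, the sensor of bacterial lipoproteins, at 4.03 and 12.5 RPKM (1.42) and Tnfrsf1b, a receptor for TNF, at 7.48 and 16.7 RPKM (1.06). Tnfrsf11b, the decoy receptor osteoprotegerin, stood on the other side without a call, at 18.9 and 9.21 RPKM (-0.96). Among 17 NF-kB subunits and feedback genes 1 was called, the adhesion gene Icam1, at 4.44 and 18.1 RPKM (1.81). Rela, the main activating subunit, was level at 33.0 and 35.6 RPKM (0.10), and the inhibitor Nfkbia, itself a target, was at 39.5 and 66.0 RPKM (0.73). Cebpb and Cebpd, transcription factors of inflammatory and acute-phase genes, were at 140.5 and 258 RPKM (0.87) and 31.7 and 59.7 RPKM (0.89), both short of a call.

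Acute-phase and innate effector genes were on the higher side, with a median of 1.53. Of 13 measured, all had a ratio above 0 and 8 were called higher, 6 of them at the minimum in both libraries. Saa3, a serum amyloid made outside the liver, was at 19.1 and 236 RPKM (3.56). Lcn2, which captures bacterial iron carriers, was at 12.8 and 99.4 RPKM (2.86), and Steap4, a metal reductase, at 2.23 and 17.7 RPKM (2.53). Haptoglobin, encoded by Hp, was at 4.42 and 19.4 RPKM (1.91), the copper carrier Cp at 3.87 and 12.9 RPKM (1.52) and the leukocyte protease inhibitor Slpi at 2.71 and 10.2 RPKM (1.60). Nos2, the inducible nitric oxide synthase, reached the minimum in the knockout library alone, at 0.406 and 10.3 RPKM (3.003). Ptx3, a secreted pentraxin that binds microbes, was at 114 and 141 RPKM (0.30) without a call.

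Complement genes showed the same direction, and the called members covered the first steps of the classical pathway, the central component and the regulators. Of 11 measured out of 26 listed, 8 were called higher and none lower, with a median of 1.35, and 7 of 9 when the minimum was required in both libraries. The proteases of the C1 complex, C1ra and C1s1, were at 5.29 and 15.5 RPKM (1.39) and 3.43 and 19.9 RPKM (2.24). C3, the component on which all pathways converge, was at 8.51 and 38.7 RPKM (2.06), and Cfb, its partner in the alternative pathway, at 0.940 and 3.33 RPKM (1.16). Inhibitors were higher as well as activators. Serping1, the C1 inhibitor, was at 2.96 and 17.8 RPKM (2.25), the surface regulators Cd55 and Cd59a at 2.73 and 8.53 RPKM (1.35) and 3.95 and 9.40 RPKM (1.07), and clusterin, encoded by Clu, at 1.83 and 8.49 RPKM (1.75). Masp1, a protease of the lectin pathway, was the exception on the other side of 0, at 23.6 and 16.0 RPKM (-0.53).

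Among protease inhibitors of the serpin family, 5 of 16 measured members were called higher and none lower (median 0.87), with Serping1 shared with the complement list. Serpina3n, an inhibitor of leukocyte proteases, was at 1.14 and 8.92 RPKM (2.21), and Serpinb2, an inhibitor of the plasminogen activator urokinase, at 1.99 and 8.65 RPKM (1.69). The collagen chaperone gene Serpinh1, abundant in fibroblasts, was not called, at 726 and 657 RPKM (-0.14). Serpina3f, Serpina3h and Serpina3n lie in a family of close copies, so their separate values are uncertain.

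**Figure D2:**
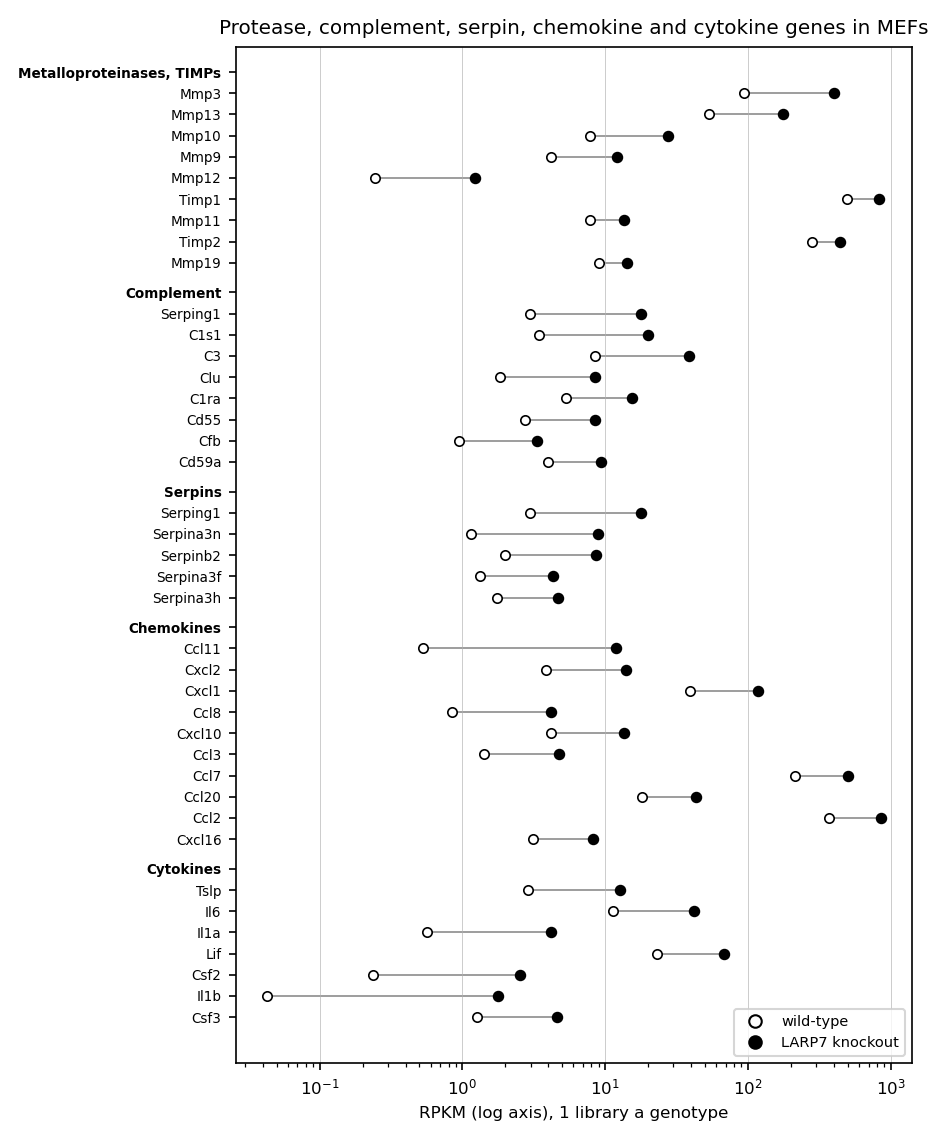
RPKM on a log axis in wild-type (open) and LARP7 knockout MEFs (filled), 1 library each, for the 9 metalloproteinase and TIMP genes with the highest log2 ratios and for every called complement, serpin, chemokine and cytokine gene. In each gene shown the knockout value is the higher one, and the called chemokine genes range from 4.20 to 858 RPKM in the knockout.

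Matrix-degrading enzymes were higher as a subset, while the matrix they act on was mostly level. Of 18 metalloproteinase and inhibitor genes measured, 4 were called higher and none lower, with a median of 0.53. Mmp3, the stromelysin that opens many matrix proteins and activates other proteases, was at 93.5 and 399 RPKM (2.08). Its relative Mmp10 was at 7.82 and 27.8 RPKM (1.71), the collagenase Mmp13 at 53.4 and 177 RPKM (1.71) and the gelatinase Mmp9 at 4.14 and 12.1 RPKM (1.35). The constitutive enzymes Mmp2 and Mmp14 were at 67.4 and 89.5 RPKM (0.41) and 179 and 210.1 RPKM (0.23). Timp1 and Timp2, the secreted inhibitors of these enzymes, were at 491 and 833 RPKM (0.76) and 279.6 and 441 RPKM (0.66), higher but not called. No member of the 13 measured ADAMTS genes was called, with Adamts7 at 5.28 and 11.5 RPKM and Adamts12 at 8.82 and 4.89 RPKM at the ends (1.00 and -0.74).

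In the structural matrix the called genes lay among the small leucine-rich proteoglycans and the elastic fibre and matricellular genes. Over all tested genes 3.29% were called, so little can be read from short lists without a call. Fibrillar collagens had 11 measured members and none called (median 0.27), and their summed level was 2534 and 2509 RPKM. Col3a1, the collagen of soft tissue, was at 39.4 and 65.8 RPKM (0.73). None of the 20 genes for collagen modification and cross-linking was called (median 0.09), nor any of 16 basement membrane genes (median 0.19). Of 8 small leucine-rich proteoglycans measured 2 were called higher, both of which bind collagen fibrils. They were Dcn (decorin), at 16.8 and 92.6 RPKM (2.40), and Lum (lumican), at 10.6 and 38.3 RPKM (1.76). Biglycan, encoded by Bgn and of the same family, was at 472 and 542 RPKM (0.20). In the elastic fibre and matricellular list, 1 of 32 was called higher and 2 lower. Mfap4, a microfibril protein, was at 1.92 and 7.70 RPKM (1.58), against the tenascin Tnn at 9.62 and 2.64 RPKM (-1.55) and the cochlin gene Coch at 18.8 and 3.53 RPKM (-2.13), the lowest ratio of any mRNA gene.

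Lipid mediators and secreted growth regulators added single called genes. Ptges, the inducible prostaglandin E synthase, was at 17.2 and 42.8 RPKM (1.27), and the cyclooxygenase that feeds it, Ptgs2, was abundant in both libraries at 170.5 and 231.3 RPKM (0.44). Among 20 BMP and TGF-beta ligands and antagonists 3 were called higher: the activin subunit Inhbb at 19.9 and 58.6 RPKM (1.51), Gdf5 at 0.876 and 2.85 RPKM (1.04) and the antagonist Sostdc1 at 0.0619 and 1.61 RPKM (1.30). Gdf5 and Sostdc1 entered through the knockout library alone, and of the 15 members at the minimum in both libraries 1 was called. Of 14 target genes of that pathway none was called, against 3.29% of all tested genes, and their median was -0.15. For example Id1 was at 98.2 and 84.3 RPKM (-0.22) and Smad7 at 41.3 and 34.3 RPKM (-0.26). Of 11 Wnt antagonists and feedback targets, Nkd2, an inhibitor of Dishevelled, was called at 3.53 and 9.11 RPKM (1.16), and the secreted antagonists Sfrp1 and Dkk2 were at 7.07 and 14.5 RPKM (0.94) and 5.58 and 11.6 RPKM (0.93). In the IGF system Igfbp3 was called at 7.35 and 18.8 RPKM (1.25). Igfbp7, the most abundant of these binding proteins here, was at 638 and 1134 RPKM (0.83), and the ligand Igf2 was level at 215 and 230.9 RPKM (0.11). Aldh1a2, which makes retinoic acid, was called higher at 0.886 and 3.62 RPKM (1.29), but reached the minimum in the knockout library alone. Angptl4, an inhibitor of lipoprotein lipase, was called higher at 7.29 and 22.1 RPKM (1.48).

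Fibroblast identity genes were level, and the genes that mark position in the embryo differed in a few places. None of 17 fibroblast markers was called (median 0.08), and none of 22 smooth muscle and myofibroblast genes (median -0.08). With 3.29% of all tested genes called, little can be read from the absence of calls in lists this short. Acta2, the actin of myofibroblasts, was at 1573 and 1305 RPKM (-0.27). Of 56 regional patterning factors 2 were called lower and none higher. Pitx1, which specifies the hindlimb and parts of the jaw, was at 22.7 and 7.52 RPKM (-1.47), and Barx1, a homeobox gene of the face and foregut mesenchyme, at 6.70 and 1.02 RPKM (-1.93). Tbx4, another hindlimb gene, was not called and stood on the higher side at 3.56 and 5.20 RPKM (0.44).

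Within the HOX genes, of which 34 were measured and 1 was called, the members of the C cluster with lower values lay next to each other. Hoxc12 was called lower at 2.58 and 0.676 RPKM (-1.09), and it reached the minimum in the wild-type library alone. Of the 32 HOX genes at the minimum in both libraries none was called. Its neighbours Hoxc9, Hoxc10 and Hoxc11 had ratios of -0.58, -0.75 and -0.73, and Hoxc10 was at 9.53 and 5.25 RPKM. Hoxc13, at the end of the cluster, was closer to level at 2.70 and 2.24 RPKM (-0.19). Toward the other end of the cluster, Hoxc4, Hoxc5, Hoxc6 and Hoxc8 had ratios between 0.09 and 0.24, and Hoxc6 was at 9.10 and 9.75 RPKM. Hoxb4 had the highest ratio of the list without a call, at 3.69 and 7.34 RPKM (0.83). Where in the embryo the cells of each culture came from is not given, and its part in these values was not tested.

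Genes of glia and neural crest held calls on both sides. Of 7 measured, S100b, at 1.32 and 3.70 RPKM (1.02), and the neurotrophin receptor Ngfr, at 3.30 and 8.23 RPKM (1.10), were called higher, and Sox2, a progenitor factor, was called lower at 3.24 and 0.730 RPKM (-1.29), with the wild-type library alone at the minimum. Sox10, which defines the lineage, was at 2.03 and 3.94 RPKM (0.71). The 5 defining markers of the lineage summed to 5.30 and 11.3 RPKM. Their part in the values of other genes was not tested.

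Leukocyte markers, which stand beside the immune genes described above, held no call. The 6 defining markers summed to 8.39 and 10.5 RPKM, 4 were measured and none was called. Ptprc, the pan-leukocyte gene CD45, was at 0.0370 and 0.0293 RPKM, and Spi1, a transcription factor of myeloid cells, at 0.362 and 0.268 RPKM. Csf1r, the macrophage growth factor receptor, was at 3.55 and 4.22 RPKM (0.20), the macrophage genes Cd68 and Adgre1 at 2.05 and 3.62 RPKM (0.60) and 0.844 and 1.77 RPKM (0.59), and Tyrobp, an adaptor of myeloid cells, at 1.54 and 0.562 RPKM (-0.70). The longer list of 18 macrophage and leukocyte genes summed to 35.3 and 43.4 RPKM, most of it the lysozyme gene Lyz2 at 22.4 and 28.3 RPKM (0.32). Of its 7 measured members 5 had a ratio above 0 and none was called. Over all tested genes 3.29% were called, so nothing can be read from the absence of calls among so few genes. The part of such cells in the values of the immune genes was not tested.

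Among genes of cell contacts, the gap junction gene Gjb2 (connexin 26) was called lower, at 17.3 and 7.14 RPKM (-1.17). Gja1 (connexin 43), the main connexin of fibroblasts, was not called, at 131 and 146 RPKM (0.15). Integrins had none of 13 called (median 0.18), against 3.29% of all tested genes. Of the 34 cadherin and protocadherin genes, 28 were above 0 and none was called. Many of the latter are gamma protocadherins, which share exons and had nearly the same ratio, as in Pcdhga6 (0.35) and Pcdhgb6 (0.36), so they are not separate observations.

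**Figure D3:**
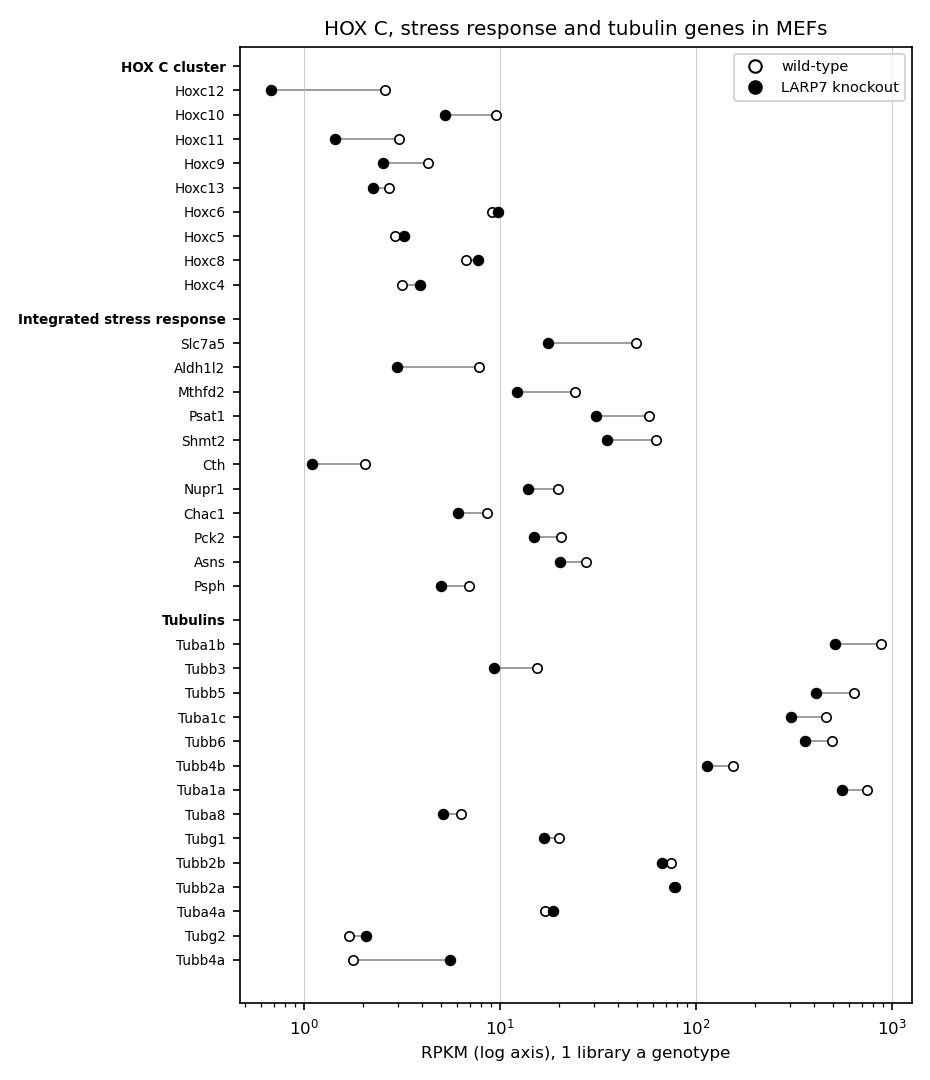
RPKM on a log axis in wild-type (open) and LARP7 knockout MEFs (filled), 1 library each, for all measured HOX C and tubulin genes and for the 11 integrated stress response genes with the lowest log2 ratios. Hoxc12, Slc7a5 and Aldh1l2 lie to the left of their wild-type value by enough to be called.

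Genes of G2 phase and mitosis were called lower in large part. Of 40 measured 29 were called lower and none higher (median -1.11), and all 40 were at the minimum in both libraries. Cdkn3, a phosphatase of cyclin-dependent kinases, was the lowest at 7.19 and 1.63 RPKM (-1.64). Plk1, a kinase of mitotic entry, was at 41.9 and 14.6 RPKM (-1.46), and Cdc20, which activates the anaphase-promoting complex, at 79.6 and 30.5 RPKM (-1.36). Foxm1 and Mybl2, transcription factors of this programme, were at 16.7 and 6.90 RPKM (-1.17) and 8.13 and 3.24 RPKM (-1.11). A single member lay above 0, the securin gene Pttg1, at 4.30 and 6.204 RPKM (0.44). The proliferation marker Mki67, outside the list, was at 23.3 and 7.97 RPKM (-1.44).

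Replication genes were lower by less. All 43 measured members of the replication and G1/S list had a ratio below 0, with 2 called lower and a median of -0.66. The called ones make the building blocks of DNA: Rrm2, the small subunit of the enzyme that makes deoxynucleotides, at 107 and 52.6 RPKM (-1.01), and thymidine kinase, encoded by Tk1, at 15.8 and 7.30 RPKM (-1.02). Scaling the libraries to an equal median takes Rrm2 to -0.996, just short of a call. Genes that restrain the cycle were not called: Cdkn1a (p21) was at 259 and 339 RPKM (0.39), Cdkn2a, which encodes p16 and p19Arf, at 28.0 and 39.9 RPKM (0.50), and Cdkn2c at 10.3 and 4.67 RPKM (-0.99). Of 24 p53 target genes 20 had a ratio above 0 (median 0.19) and 1 was called, the apoptosis gene Pmaip1 (Noxa), at 7.37 and 22.7 RPKM (1.50). With 2.40% of all tested genes called higher, nothing about the list can be read from 1 call. Replication-dependent histone genes ran against the replication genes, with 5 of 44 called higher (median 0.48). Their median ranged from 0 to 0.59 over the alternative settings described at the end. Hist1h4h was called at 4.70 and 12.9 RPKM (1.29), and the other calls were Hist2h2aa1, Hist2h2aa2, Hist2h3c1 and Hist2h3c2. Many histone genes, these pairs among them, are near-identical copies that share reads, so the calls are not all separate observations.

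Tubulins, the subunits of microtubules, were lower without calls among the abundant members. Their summed level was 3596 and 2456 RPKM, and the median over 14 was -0.34. Tuba1b, the most abundant, was at 882 and 514 RPKM (-0.78), and Tubb5 at 642 and 408 RPKM (-0.65). The call in this family was on the other side, Tubb4a at 1.78 and 5.58 RPKM (1.25). Several tubulin genes are close copies, so the split between them is uncertain.

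Of 22 measured genes of the integrated stress response 16 had a ratio below 0 and 2 were called lower, with a median of -0.36. ATF4, the transcription factor of this response, drives amino acid import and serine synthesis when protein synthesis is limited. Slc7a5, the large neutral amino acid transporter, was at 49.2 and 17.6 RPKM (-1.43), and its partner chain Slc3a2 was level at 52.2 and 48.9 RPKM (-0.09). The mitochondrial folate enzymes Aldh1l2 and Mthfd2 were at 7.80 and 2.997 RPKM (-1.14) and 24.1 and 12.2 RPKM (-0.92), the second without a call. Psat1 and Shmt2, which make and use serine, were at 57.4 and 30.8 RPKM (-0.88) and 62.7 and 35.1 RPKM (-0.82). The 6 members above 0 included Ddit3 (CHOP), at 19.7 and 24.1 RPKM (0.28), and Cebpb had the highest ratio. Chaperones of the endoplasmic reticulum and the unfolded protein response had none of 20 called (median -0.03), and heat shock chaperones none of 17 (median -0.10). In the solute carriers, of which 183 were measured, 2 were called higher and 1 lower, against 2.40% and 0.884% of all tested genes. Nothing about the family can be read from these counts. The larger of the higher calls was the cationic amino acid transporter Slc7a2, at 3.71 and 13.0 RPKM (1.57).

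Lipid synthesis genes were lower together by amounts mostly short of a call. In the cholesterol list 23 of 24 genes had a ratio below 0 (median -0.47) and 1 was called, the sterol carrier Stard4, at 15.9 and 5.67 RPKM (-1.34). Of 14 fatty acid synthesis genes 10 were below 0 and none was called (median -0.33). Fasn, fatty acid synthase, was at 65.1 and 38.2 RPKM (-0.76), and the desaturase Scd2 at 192 and 122 RPKM (-0.65).

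Lysosomal and detoxification genes were on the higher side. Of 31 lysosome and cathepsin genes 28 had a ratio above 0 (median 0.49), 2 were called, and their summed level was 1757 and 2553 RPKM. The called ones were the protease Ctsh, at 5.37 and 13.1 RPKM (1.15), and Naglu, which degrades heparan sulphate, at 8.03 and 17.3 RPKM (1.02). Ctsd, an aspartic protease and an abundant member, was at 288 and 476 RPKM (0.72). All 15 measured xenobiotic and aldehyde enzymes were above 0 (median 0.53), with 2 called, and 1 of the 12 at the minimum in both libraries. Cyp1b1, a monooxygenase of steroids and aromatic compounds, was at 59.99 and 126 RPKM (1.06), and Akr1c18, a steroid dehydrogenase, at 0.853 and 3.22 RPKM (1.19). Among 23 antioxidant genes of the NRF2 pathway none was called (median 0.23), with the quinone reductase Nqo1 nearest, at 21.9 and 44.3 RPKM (0.98). The metallothioneins Mt1 and Mt2 were at 132 and 221 RPKM (0.74) and 178 and 353 RPKM (0.98), and hypoxia and glycolysis genes had none of 33 called (median 0.30).

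The machinery of translation and respiration differed little. Of 86 measured cytosolic ribosomal protein genes 82 had a ratio below 0 and none was called (median -0.20), with a summed level of 28919 and 25310 RPKM. Mitochondrial ribosomal proteins had a median of -0.07 over 76 genes, and nuclear subunits of the respiratory chain 0.01 over 80. The 13 mRNAs of the mitochondrial genome were all above 0 with none called (median 0.22). Growth signal programmes had medians near 0 as well, at 0.01 over 22 immediate early genes and -0.13 over 16 targets of YAP and SRF. None of either was called, from which little can be read where 3.29% of all tested genes were called. Among the immediate early genes Fos was at 2.47 and 3.59 RPKM (0.40) and Myc at 42.4 and 32.3 RPKM (-0.38).

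**Figure D4:**
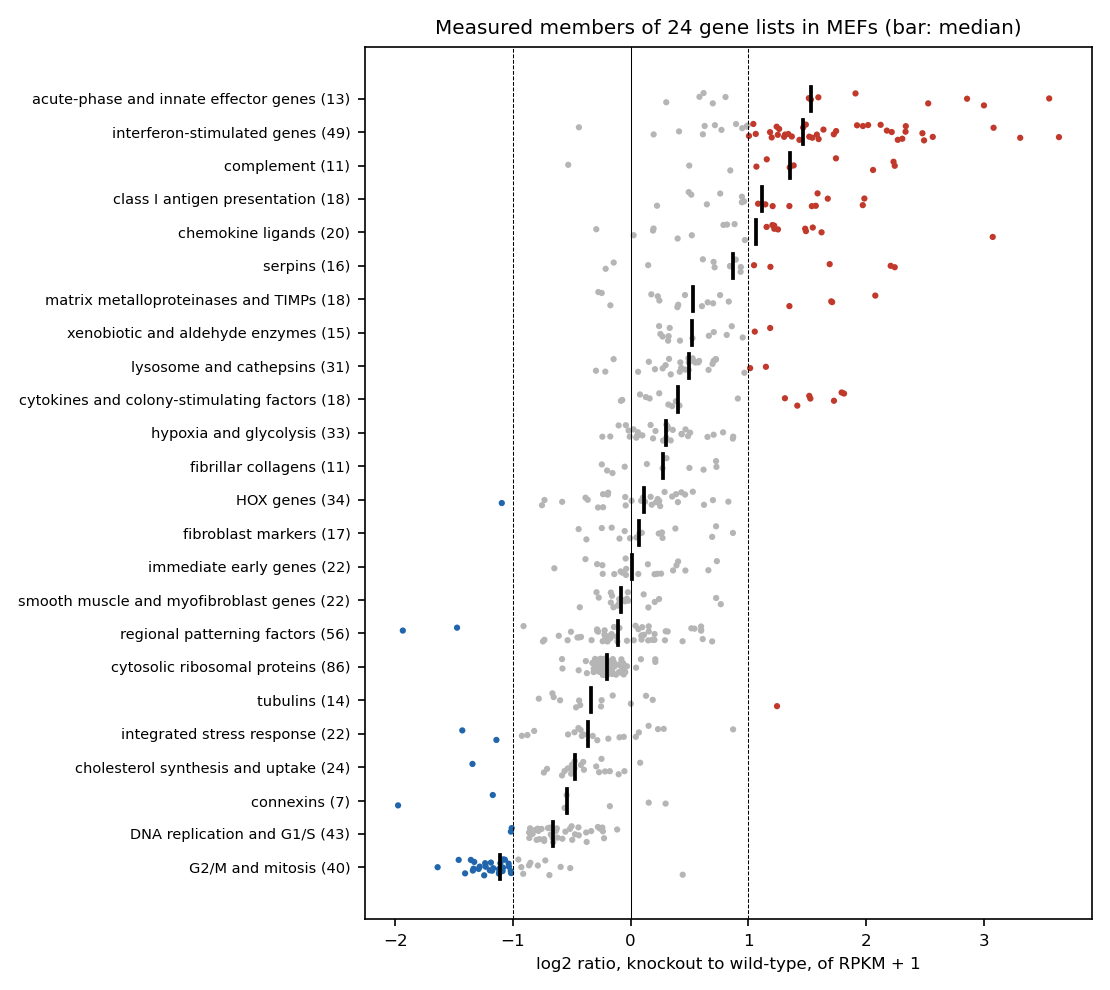
Log2 ratio of knockout to wild-type RPKM + 1 for every measured member of 24 gene lists (points; number measured in brackets; red called higher, blue called lower, grey not called), with the list median as a bar and dashed lines at 1 and -1. Medians run from 1.53 for acute-phase genes to -1.11 for G2/M genes, and the 17 fibroblast markers hold no called gene.

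Some called genes belong to no list, and those named here were chosen after their values were seen. There were 115 on the higher and 29 on the lower side with names of mRNA genes. Both sides held relatives of the listed genes. On the higher side were Apol9a (1.59), Gbp6 (1.68) and Trim30a (1.67), of families named above with the interferon genes. Gbp6 and Trim30a reached the minimum in the knockout library alone. On the lower side were genes of mitosis such as Tacc3 (-1.16), Kif4 (-1.15) and Nuf2 (-1.06). Penk, the enkephalin precursor, was at 27.9 and 128 RPKM (2.16), and Pdpn, a membrane glycoprotein of lymphatic and reticular stroma, at 28.5 and 99.7 RPKM (1.77). Mgp, the matrix Gla protein that restrains calcification, was at 96.1 and 291 RPKM (1.59), and Sod3, the extracellular superoxide dismutase, at 79.4 and 195 RPKM (1.29). Ch25h, which makes 25-hydroxycholesterol, was at 9.64 and 39.6 RPKM (1.93), Prg4, the joint lubricant lubricin, at 3.08 and 11.2 RPKM (1.58), and Txnip, an arrestin that binds thioredoxin, at 21.9 and 48.2 RPKM (1.10). Lower genes outside the lists included the condensin subunits Smc2 and Smc4, at 18.6 and 8.63 RPKM (-1.03) and 17.4 and 8.08 RPKM (-1.02), the histone variant gene H2afz at 145 and 71.3 RPKM (-1.01), and Stmn1, which destabilises microtubules, at 53.8 and 25.9 RPKM (-1.03). Fam132b, the erythroferrone gene, was at 7.07 and 1.13 RPKM (-1.92).

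MicroRNA entries held calls in both directions. Of the entries with microRNA names 337 were tested, and 13.9% were called, 28 higher and 19 lower, against 2.80% of the 11102 with mRNA gene names, a difference that was not tested. At 1 RPKM a gene of 1 kb rests on 36.9 and 37.3 reads, and these much shorter entries rest on far fewer. Their ratios are therefore more open to read sampling, whose part in the share called was not tested. Many entered through 1 library: of the 260 listed microRNA genes at the minimum in both libraries 9 were called higher and 9 lower. These entries cover short precursors inside longer transcripts, and since strand was not given their reads cannot be told apart from those of the host gene. Mir15b, which lies in a gene of the condensin subunit Smc4, was at 11.01 and 2.51 RPKM (-1.77). Small nucleolar RNAs had 4 of 109 called in each direction (median -0.17), and 1 higher and 3 lower of the 97 at the minimum in both libraries. Among the long noncoding RNAs, Malat1, a nuclear RNA, was called at 138 and 282 RPKM (1.02), its neighbour Neat1 was level at 13.97 and 14.8 RPKM (0.08), and the imprinted Meg3 was at 24.7 and 48.3 RPKM (0.94). None of 27 imprinted genes was called (median 0.15).

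The human lines were treated with siLARP7 or with siNC as its control, 1 library each. LARP7 itself was at 8.65 RPKM under siNC and 4.51 RPKM under siLARP7 in MDA-MB-231 (-0.81) and at 5.62 and 2.89 RPKM in HCC1937 (-0.77), lower in both lines and short of a call in both. Genes were matched by symbol. Of the MEF genes called higher, 115 were measured in MDA-MB-231 and 108 in HCC1937, and none was called higher in either line. Among all matched genes the shares called higher were 0.0111% of 8994 and 0.167% of 8405 (0.515% and 0.377% of all measured symbols), so low that nothing can be read from these counts of 0. Of those called lower, 1 of 63 was also lower in MDA-MB-231, the cyclin gene CCNB2, where the background was 0.178% of the matched genes and 0.704% of all measured symbols. In HCC1937 it was 7 of 64, against 0.892% of the matched genes and 1.27% of all measured symbols. The 7 are 10.9% of the MEF genes and 9.33% of the 75 matched genes called lower in that line. These 7 were SMC4, CKAP2L, CENPE, HMMR, KIF11, ECT2 and MKI67. Over all matched genes HCC1937 had a median of -0.18, and over the 64 it was -0.35. The interferon list, with a median of 1.47 in MEFs, had medians of -0.02 over 34 genes in MDA-MB-231 and -0.14 over 35 in HCC1937. The G2/M list, with a median of -1.11 in MEFs, had a median of -0.08 in MDA-MB-231, with 2 of 40 genes called lower. In HCC1937 its median was -0.43, with 5 of 40 called lower. MEFs carry a knockout and the lines received an siRNA, so the comparison differs in species, cell type and agent together, and the difference between MEFs and the lines was not tested.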

How the data were processed

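RNA was sequenced from 1 library each of LARP7 knockout and wild-type MEFs. Total RNA went into an Illumina library kit, per the labels' protocols. The submitters' processing notes name cutadapt, FastQC, STAR and the build GRCh37, without versions. Mouse gene IDs fill the MEF table although the labels name a human organism, and its build, any poly(A) selection and the strand are not given in the sources used here. Per the file headers, the values for each library are RPKM computed by the authors. Next to them stands the authors' log2 change from GFOLD(0.01), quoted only as theirs.

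Depth came from genes with 1 read, for which the inverse of the RPKM is the product of a whole length and the depth. At the best depth 18.4% and 18.7% of the values used (knockout and wild-type) were whole within 0.02, against 3.98% and 3.99% at the median of all depths tried. The log2 ratio was taken on the deposited RPKM plus a pseudocount of 1 with pandas 2.3.3. Genes of the 2 human lines were treated in the same way, with 1 entry a symbol. The steps were run on simulated counts with planted changes and read sampling as the only variation. That checks the code and cannot show how cultures of the same genotype vary. Members, 87 gene lists and the rule for named genes were chosen with earlier results of these data known. The rule takes the 20 mRNA genes at each end, every called list member, and the 3 most abundant and 3 most different members of each list; other genes named were chosen after their values were seen. Some genes that the rule takes are not reported here. Entries were sorted into mRNA and noncoding genes by a pattern of names. Of the tested entries, 68 repeat a symbol with equal values (34 symbols, of which Pdpn is called and counted under both IDs), and 17 carry a symbol turned into a date. Alternatives changed the pseudocount, the minimum and the scaling of the libraries.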

Additional observations from a re-analysis of the deposited data

Results flagged for a closer look

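Il1a, the gene for the cytokine interleukin-1 alpha, was called in opposite directions in MEFs and in HCC1937. Its MEF level was 0.563 RPKM without and 4.18 RPKM with the knockout, a log2 ratio of 1.73. The human gene in HCC1937 stood at 19.9 RPKM under the siNC control and at 8.93 RPKM under siLARP7, a log2 ratio of -1.07. In MEFs it reached the minimum in the knockout library alone. Among the 108 matched genes called higher in MEFs it was the 1 called lower in HCC1937. Of all matched genes 0.892% were called lower in that line, so nothing can be read from 1 such call. With 1 library a group the difference between the cell types was not tested.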

How the results depend on the processing

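No paired analysis was possible because each genotype is 1 library. For the same reason no library could be left out. A pseudocount of 0.1 raised the called genes from 348 to 758 higher and from 128 to 276 lower. Higher calls numbered 202 with 5 RPKM as the minimum, and 218 where both libraries had to reach 1 RPKM. With no pseudocount and that minimum in both libraries, a setting chosen after seeing the data, there were 363 higher and 205 lower. Scaling to a median ratio of 1 gave 358 and 120, and a trimmed mean 355 and 124. The authors' deposited log2 change gave 366 and 106 among the tested genes, of which 265 and 79 were shared with the calls here. That GFOLD value is a different measure from the ratio used here, and was exactly 0 for 5829 of the tested entries. At the level of named genes, a pseudocount of 0.1 added 38 calls and lost none, and the authors' deposited log2 change lost 61 and added 11. No log2 ratio of a called named gene changed sign under any of these settings. With a median scaling, Rrm2 and Mir7018 fell short of the call. The levels of genes under 1 RPKM in 1 library are limited by depth, and that of Rn7sk also by its unknown capture. No setting replaces a second library.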
